A study of Mus musculus with 27 samples.

Results

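The transcriptional response of mouse bone marrow-derived macrophages to interleukin-4 (IL-4) was described by comparing 3 RNA-seq libraries of IL-4-treated cells with 3 libraries of cells kept in control medium, none of them irradiated. These are 6 of the 27 libraries of the series. The genes described were all those with at least 1 CPM (reads relative to library size, scaled by the authors) in at least 3 of the 6 libraries, which kept 12072 of the 19069 genes with a symbol, and 6997 did not pass. Both groups were grown from femur and tibia marrow of C57BL/6 mice (strain label C57/B6) in RPMI-1640 with 5% serum. The cells received 0 Gy and 7 days of mouse CSF-1 at 10 ng/ml, the growth factor that turns marrow precursors into macrophages. The IL-4 group (M2 in the labels) then received IL-4 at 20 ng/ml for 2 days and the control group (M0) received control medium for the same 2 days. The other groups of the series received LPS at 100 ng/ml (M1) in place of IL-4, or 5 Gy of FLASH or standard protons before CSF-1. The sample titles carry a code for each replicate number, the same in every group, whose meaning the labels do not give. The labels also do not state whether replicates 1 to 3 came from separate mice or cultures, so the p-values reflect only how far these libraries differ among themselves, which may be technical.

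IL-4 binds a receptor made of the IL-4 receptor alpha chain and the common gamma chain, or of the alpha chain and IL-13 receptor alpha 1. JAK kinases at the receptor phosphorylate STAT6, which enters the nucleus and binds DNA at paired TTC and GAA sequences. In mouse macrophages this gives the state called alternative activation, known for arginase 1 and for the secreted proteins RELM-alpha (Retnla) and Ym1 (Chil3), and at later times for cell fusion and a greater use of mitochondrial respiration.

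The 3 genes that mark the state were high in each IL-4 library. Retnla stood at 29.6, 18.9 and 14.9 CPM in control replicates 1 to 3 and at 3892, 3007 and 3064 CPM in IL-4 replicates 1 to 3. Arg1 stood at 8.90, 9.54 and 5.83 CPM in control libraries and at 713, 653 and 161 CPM with IL-4. Chil3 stood at 127, 923 and 147 CPM in control libraries and at 3716, 4810 and 5771 CPM with IL-4. No control library reached the lowest IL-4 library for any of the 3, although Chil3 was raised in control replicate 2 and Arg1 was lowest of its group in IL-4 replicate 3. Macrophage genes were abundant in both groups but lower with IL-4 as a list. The 24 macrophage core genes summed to 35569 to 37170 CPM in control libraries and 22385 to 24910 CPM with IL-4, and 14 of them were called lower by the rule given below. Csf1r, the CSF-1 receptor, lay between 2177 and 2257 CPM in control libraries and between 1281 and 1638 CPM with IL-4. The macrophage lineage factor Spi1 stood at 354 ± 32.1 CPM (SD, n = 3) and 374 ± 15.5 CPM (SD, n = 3).

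Differences are given as IL-4 minus control medium in log2(CPM + 0.5), so that changes of genes near 0 come out too small, with the standard error (SE) of limma's model and a Benjamini-Hochberg adjusted p over the 12072 genes. Genes whose adjusted p was below 0.05 were called. By that rule 994 genes were higher with IL-4 (8.23% of those tested) and 967 were lower (8.01%), together 1961 (16.2%). Counts of calls in the gene lists below stand beside these shares, and whether a list differs from them was not tested. The 3 IL-4 libraries lay above all 3 control libraries in 19.1% of tested genes and below them in 18.5%. Groups overlapped in 0 of the 1961 called genes, so a lack of overlap adds nothing to a call. Of the genes called higher, 352 rose by at least 1 log2 and 42 by at least 3. Of those called lower, 488 fell by at least 1 log2 and 12 by at least 3. The median difference was 0.79 among the genes called higher, -1.01 among those called lower and -0.01 over all genes tested. Genes called higher made up 10.1% ± 0.771 (SD, n = 3) of a control library and 19.9% ± 0.0619 (SD, n = 3) of an IL-4 library, and genes called lower made up 17.3% ± 1.01 (SD, n = 3) and 7.89% ± 0.0558 (SD, n = 3). These shares describe the called genes and were not tested. In bulk RNA, less RNA of a gene per cell and fewer cells that hold it cannot be told apart.

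**Figure D1:**
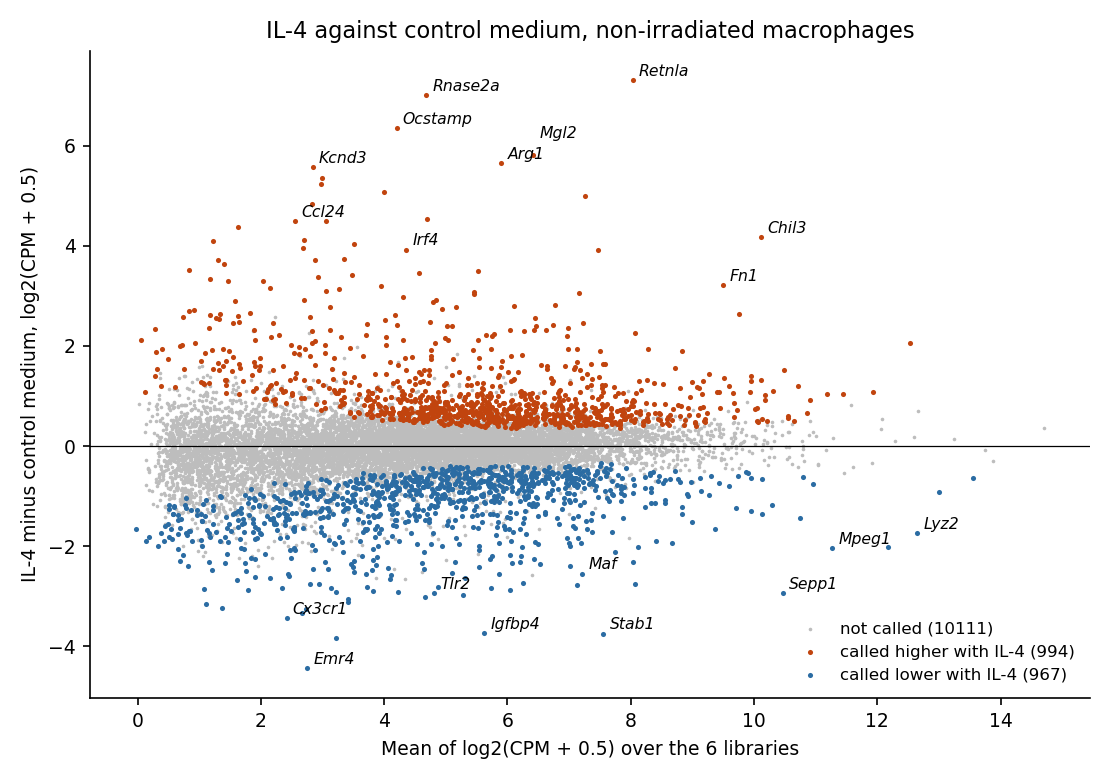
Each point is a gene: the x axis is its mean log2(CPM + 0.5) over the 6 libraries and the y axis its IL-4 minus control difference on the same scale, with genes called higher in orange (994), called lower in blue (967) and not called in grey. Retnla, Rnase2a and Ocstamp lie at the top and Emr4 at the bottom, and called genes are found over the whole range of abundance.

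The 6 libraries held 21.37 M to 25.84 M assigned reads as recovered from the smallest steps of the values, 11747 to 12099 genes at 1 CPM or more, and 0.957% to 1.35% of signal in mitochondrially encoded genes. The first principal component took 53.8% of the variance and separated the groups. The second took 16.2% and set IL-4 replicate 3 apart from the other IL-4 libraries. In control replicate 2, 875 genes lay at least 1 log2 from the mean of the other 2 control libraries, and in IL-4 replicate 3, 902 genes did so, against 418 to 622 in the other 4 libraries. Interferon-stimulated genes were a median 1.48 log2 higher in control replicate 2 than in the other controls, and stromal markers 1.61 lower. Proliferation genes were a median 2.08 log2 lower in IL-4 replicate 3 than in the other IL-4 libraries, and genes of cholesterol and fatty acid synthesis 0.90 lower. Leaving out control replicate 2 called 1467 genes, leaving out IL-4 replicate 3 called 2114 and leaving out both called 2267. The number fell to 1197 without control replicate 1, 949 without control replicate 3, 1058 without IL-4 replicate 1 and 1003 without IL-4 replicate 2. Of 208 genes named by rule, 200 were called, and 122 of these stayed called whichever library was left out. A fit to all 27 libraries keeps each difference and changes only its error, so no direction could change. In it 97 of the 200 were no longer called. Among them were Arg1 (adjusted p = 0.062) and Chil3 (0.19), while Retnla stayed called.

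**Figure D2:**
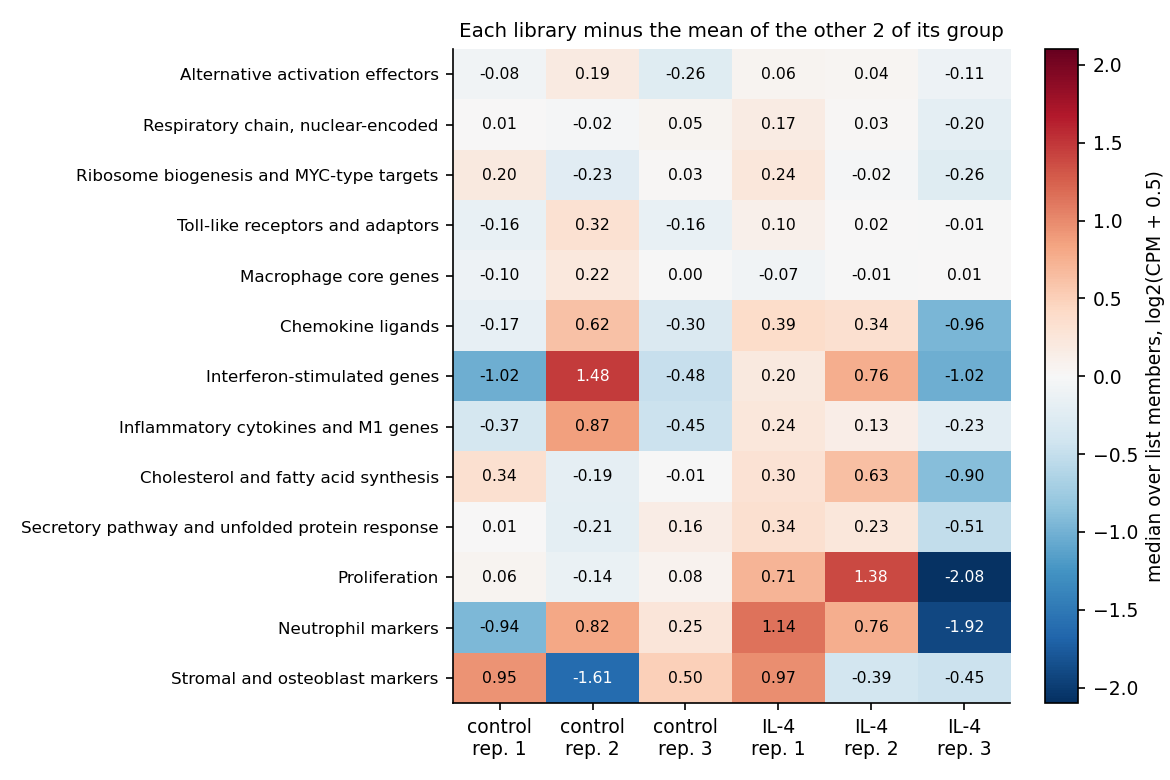
Each cell is the median over the tested members of a gene list (rows) of a library (columns) minus the mean of the other 2 libraries of its group, in log2(CPM + 0.5). The darkest cells are proliferation genes (-2.08) and neutrophil markers (-1.92) in IL-4 replicate 3 and interferon-stimulated (1.48) and stromal (-1.61) genes in control replicate 2, while alternative activation effectors deviate by 0.26 or less in any library.

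Since STAT6 binds paired TTC and GAA letters, promoters of 5 strong risers that hold such a match are shown first, with the match in capitals. They were chosen for the match: Rnase2a, Mgl2, Kcnd3 and Flt1, which rose by 7.01, 5.81, 5.57 and 5.07 log2, more than Tmem26, Cish or Chil3, also had an entry and held neither form of the pair. They come from RefSeq (build GRCm38.p6, 250 bases before to 50 after a start site), where 147 of the 208 named genes had an entry that was used, and Arg1, Ocstamp, Ccl24 and Socs2 had none. Only the 250 bases before the start are printed, 5′ to 3′ along the gene's strand. Capitals mark the long-gap pair (TTC, any 4 bases, GAA) in the first 3 and the short-gap pair (TTCNNNGAA, with 3 bases between) in Chil3. Both motifs read the same on either strand. Retnla lies at chr16:48842359-48842608 on the plus strand with its match starting 145 bases before the start site, Pdcd1lg2 at chr19:29410669-29410918 (plus) with 1 match from 82 bases before it, Tmem26 at chr10:68723496-68723745 (plus) with matches from 227 and 41 bases before it, and Chil3 at chr3:106167565-106167814 (minus) with 1 match from 172 bases before it.
Retnla: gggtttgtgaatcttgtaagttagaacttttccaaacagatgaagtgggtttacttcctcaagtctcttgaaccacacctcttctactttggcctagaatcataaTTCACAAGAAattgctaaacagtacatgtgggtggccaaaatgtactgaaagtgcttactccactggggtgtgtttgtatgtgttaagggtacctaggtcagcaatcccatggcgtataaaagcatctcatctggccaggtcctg
Pdcd1lg2: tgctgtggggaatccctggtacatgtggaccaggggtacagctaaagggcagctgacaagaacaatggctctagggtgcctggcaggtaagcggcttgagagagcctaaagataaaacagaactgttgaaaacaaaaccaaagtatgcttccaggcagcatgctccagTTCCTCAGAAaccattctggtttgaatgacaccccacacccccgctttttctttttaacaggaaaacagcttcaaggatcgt
Tmem26: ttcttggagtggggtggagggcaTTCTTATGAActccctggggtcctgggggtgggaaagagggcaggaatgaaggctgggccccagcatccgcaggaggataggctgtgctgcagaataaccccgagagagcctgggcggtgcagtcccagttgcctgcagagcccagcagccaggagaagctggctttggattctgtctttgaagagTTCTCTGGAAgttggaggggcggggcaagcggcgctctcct
Chil3: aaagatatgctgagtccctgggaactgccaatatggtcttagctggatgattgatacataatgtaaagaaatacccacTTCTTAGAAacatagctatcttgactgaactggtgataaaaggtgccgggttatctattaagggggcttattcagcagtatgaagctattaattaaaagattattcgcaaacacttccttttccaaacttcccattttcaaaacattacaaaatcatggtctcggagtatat

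Cish, which encodes an inhibitor of cytokine receptors, held 2 copies of TTCNNNGAA directly at its start site (chr9:107296659-107296678, plus strand), in these 20 bases.
Cish: TTCCTGGAAagTTCTTGGAA

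Among the 42 genes that rose by at least 3 log2, 28 had an entry and 7 of them (25%) held the long-gap pair: Awat1, Hebp2, Pdcd1lg2, Rbp4, Retnla, Slc27a3 and Tmem26. Shares are of genes with an entry, and a gene counted if any of its promoters held the match. The motif was in 8.21% of genes called higher (62 of 755), 5.34% of those called lower (39 of 730) and 6.61% of those tested (602 of 9108). It was in 8.01% of all genes used from the promoter table (2164 of 27025), from which the promoters of 1 chromosome were left out. TTCNNNGAA was in 8.34% of genes called higher, 7.81% of those called lower and 8.29% of those tested. GAGGAA, the core letters bound by the macrophage factor PU.1, searched on both strands, was in 30.1% of genes called higher, 35.9% of those called lower and 31% of those tested. Of the 28 genes with an entry that rose by at least 3 log2, 3 (10.7%) held TTCNNNGAA and 11 (39.3%) held GAGGAA. Of the 12 genes that fell by at least 3 log2, 6 had an entry. Of these, 1 (16.7%) held the long-gap pair, 0 held TTCNNNGAA and 3 (50%) held GAGGAA. These shares are descriptions, those at 3 log2 rest on few promoters, and a match is not a measured binding site.

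Among feedback inhibitors of the receptor, Cish, Socs1 and Socs2 rose, and both alpha chains of the receptor fell. Of 16 tested genes of the pathway, 3 were called higher, all of them inhibitors, and 5 lower, with a median of -0.42 (3 lower without control replicate 2, control replicate 3 or IL-4 replicate 1). Cish stood at 1.23, 1.86 and 0.826 CPM in control libraries and at 39.9, 35.0 and 43.6 CPM with IL-4 (difference 4.51, SE 0.25, adjusted p = 0.000168). Socs2, a suppressor of cytokine signalling, stood at 3.15, 2.27 and 1.61 CPM and at 36.1, 34.5 and 39.3 CPM (3.74, SE 0.23, adjusted p = 0.000194). Socs1, which inhibits JAK kinases, stood at 1.34, 3.54 and 0.609 CPM and at 30.6, 18.4 and 31.8 CPM (3.72, SE 0.48, adjusted p = 0.00373). Each of the 3 stayed called whichever library was left out. Cish and Socs1 passed the filter only through the IL-4 libraries, so their direction is in part set by the filter. Socs3, Ptpn6 and Ptpn1, also on the list, were not called higher. Il4ra, the alpha chain, fell from 50.7, 52.7 and 53.6 CPM to 28.0, 29.6 and 25.0 CPM (-0.92, SE 0.11, adjusted p = 0.00293). Jak3, the kinase of the common gamma chain, fell from between 36.8 and 40.8 CPM to between 20.3 and 21.6 CPM (-0.85), and Pik3r1, a regulatory subunit of PI3-kinase, from between 104 and 112 CPM to between 58.7 and 62.6 CPM (-0.82). Il13ra1 fell by 1.47, with an adjusted p of 0.0225 that rose to as much as 0.078 without control replicate 1, 2 or 3 or IL-4 replicate 1. Stat6 itself read 255, 235 and 237 CPM and 199, 183 and 267 CPM, overlapping ranges with an adjusted p of 0.46.

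Of 24 tested secreted and surface effectors of alternative activation 20 were called higher and 0 lower (14 to 20 higher when 1 library was left out), and the median difference was 2.90. Retnla had the largest difference of the list (7.31, SE 0.25, adjusted p = 3.3e-05). Rnase2a, an eosinophil-type ribonuclease, stood at 2.42, 1.27 and 1.74 CPM in control libraries and at 307, 253 and 319 CPM with IL-4 (7.01, SE 0.20, adjusted p = 1.6e-05). Arg1, which splits arginine into ornithine and urea, rose by 5.65 (SE 0.55, adjusted p = 0.00154). Chil3, a chitinase-like protein, rose by 4.18 (SE 0.71, adjusted p = 0.0107). Mgl2, a galactose-binding lectin, stood at 9.86, 22.7 and 5.70 CPM and at 769, 543 and 632 CPM (5.81, SE 0.44, adjusted p = 0.000641). Its paralog Clec10a read 22.6, 43.0 and 15.7 CPM and 43.3, 23.2 and 55.3 CPM, with overlapping groups and an adjusted p of 0.376. Retnla and Retnlg, Chil3 and Chil4, and Rnase2a and Ear2 belong to families of close copies, between which the authors' read assignment may divide reads.

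Surface proteins rose by widely differing amounts. Pdcd1lg2, the checkpoint ligand PD-L2, stood at 0.345, 0.820 and 1.22 CPM and at 43.9, 44.4 and 64.3 CPM (5.35, SE 0.30, adjusted p = 0.000168), while Cd274, which encodes PD-L1, was not called (difference 0.49). Flt1, a receptor for VEGF, stood at 2.03, 2.27 and 2.48 CPM and at 118, 90.7 and 72.7 CPM (5.07, SE 0.20, adjusted p = 4.7e-05). Mrc1, the mannose receptor, stood at 745, 752 and 534 CPM and at 1083, 1021 and 920 CPM (0.59, SE 0.16, adjusted p = 0.0471). Its groups did not overlap, but without control replicate 1 or 3 or any 1 of the IL-4 replicates the adjusted p lay above 0.05, as high as 0.139. Tgm2, a transglutaminase, rose by 1.56 (adjusted p = 0.0209), with an adjusted p of up to 0.0732 without control replicate 1 or 3 or IL-4 replicate 1.

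**Figure D3:**
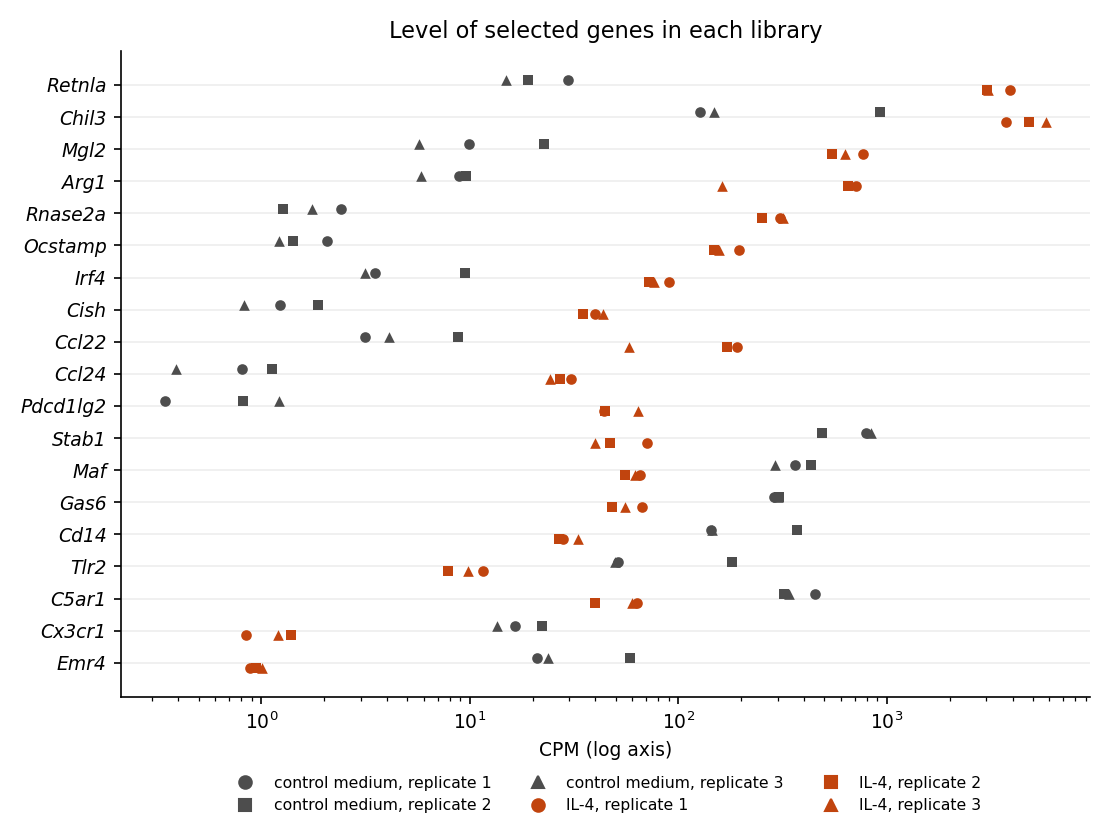
CPM on a log axis for 19 genes in the 3 control-medium (grey) and 3 IL-4 (orange) libraries, with circles, squares and triangles for replicates 1, 2 and 3. The groups do not overlap for any gene shown, as was so for every called gene. The square of control replicate 2 lies to the right of the other controls for Chil3, Cd14, Tlr2 and Emr4, and the triangle of IL-4 replicate 3 to the left of the other IL-4 libraries for Arg1 and Ccl22.

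Of 22 tested chemokine ligands 5 were called higher and 2 lower, beside 8.23% and 8.01% of all genes tested, with a median of -0.34. Ccl22, a ligand that attracts T cells, and Ccl24, one that attracts eosinophils, had the largest differences, and the T cell attractants Cxcl9 and Cxcl10 were not called (-1.39 and -1.41). Ccl22 stood at 3.15, 8.72 and 4.09 CPM and at 190, 171 and 58.2 CPM (4.53, SE 0.52, adjusted p = 0.00263), with IL-4 replicate 3 again lowest. Ccl24, eotaxin-2, stood at 0.806, 1.12 and 0.391 CPM and at 30.6, 27.2 and 24.2 CPM (4.49, SE 0.27, adjusted p = 0.000189). Ccl9 rose from between 331 and 426 CPM to between 707 and 1298 CPM (1.44). Ccl17, a ligand of the same receptor as Ccl22, did not pass the filter and read 0.0384, 0.112 and 0.13 CPM in control libraries and 1.86, 1.58 and 0.138 CPM with IL-4. Cxcl16, which is also a scavenger of oxidised lipoprotein, fell from 95.9, 271 and 155 CPM to 33.2, 30.5 and 39.7 CPM (-2.20, adjusted p = 0.00838), and Pf4 (platelet factor 4) fell by 1.76 (adjusted p = 0.00759). The count of lower ligands was 4 without control replicate 2. The count of higher ligands was 8 without IL-4 replicate 3, and 3 without control replicate 3, IL-4 replicate 1 or IL-4 replicate 2.

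Several transcription factors changed, with 10 of 34 called higher and 3 lower, beside 8.23% and 8.01% of all genes tested. Irf4, a factor needed for alternative activation in several settings, stood at 3.49, 9.46 and 3.13 CPM and at 89.7, 72.6 and 76.2 CPM (3.92, SE 0.37, adjusted p = 0.00145). Klf4 stood at 10.7, 9.24 and 15.05 CPM and at 83.7, 61.1 and 96.6 CPM (2.74, SE 0.23, adjusted p = 0.000709). Bhlhe40 rose from between 49.8 and 59.96 CPM to between 262 and 306 CPM (2.36), Batf3 from between 5.81 and 8.17 CPM to between 32.6 and 35.7 CPM (2.18), and Nfil3 from between 11.2 and 16.7 CPM to between 60.1 and 81.4 CPM (2.17). Egr2 stood at 35.8, 13.9 and 30.1 CPM and at 80.4, 80.4 and 92.9 CPM (1.75, SE 0.33, adjusted p = 0.0144), and Ppargc1b, a coactivator of mitochondrial genes, rose by 1.86 (adjusted p = 0.00261). Pparg, a lipid-sensing receptor, read 50.8, 28.7 and 54.5 CPM and 63.6, 69.3 and 70.0 CPM, all IL-4 libraries above all controls, with an adjusted p of 0.108.

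Of the listed factors, Maf fell most. It stood at 362, 434 and 290 CPM and at 65.3, 55.2 and 61.9 CPM (-2.55, SE 0.16, adjusted p = 0.000212). The groups did not overlap, as was so for every called gene. Irf8 fell by 0.98 (adjusted p = 0.0131, and 0.0529 without IL-4 replicate 1).

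Of 25 tested genes of cell fusion and osteoclasts, with a median of -0.03, 8 were called higher and 5 lower; the number lower was 2 without control replicate 2, control replicate 3 or IL-4 replicate 2, and 3 without control replicate 1 or IL-4 replicate 3. Ocstamp, a membrane protein needed for fusion of osteoclasts and giant cells, stood at 2.07, 1.42 and 1.22 CPM and at 196, 148 and 156 CPM (6.35, SE 0.20, adjusted p = 1.6e-05). Dcstamp, its functional partner, stood at 30.3, 5.51 and 19.2 CPM and at 115, 130 and 132 CPM (3.04, SE 0.54, adjusted p = 0.0124), and control replicate 2 was the lowest library. Car2, the carbonic anhydrase of osteoclasts, rose from 6.14, 16.1 and 9.18 CPM to 81.9, 86.6 and 58.8 CPM (2.88). Cdh1, E-cadherin, rose from 9.40, 15.02 and 14.96 CPM to 25.2, 26.6 and 32.8 CPM (1.10, adjusted p = 0.0156). Sirpa, an inhibitory receptor for CD47, fell from between 2384 and 2771 CPM to between 1457 and 1668 CPM (-0.75). Tnfrsf11a, the receptor RANK, was not called (-0.30).

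Besides Arg1, several genes of arginine supply and the polyamine pathway rose. Of 20 tested genes 9 were called higher (6 to 8 with 1 library left out; 6 without control replicate 3 or IL-4 replicate 2) and 1 lower, and the median was 0.28. Slc7a2, an arginine transporter, stood at 33.5, 55.4 and 50.3 CPM and at 602, 811 and 669 CPM (3.91, SE 0.21, adjusted p = 0.000168). Aldh18a1, which starts proline synthesis, rose from 13.6, 12.3 and 17.7 CPM to 46.9, 46.1 and 55.0 CPM (1.74). Eif5a, the translation factor that is modified with a polyamine, rose from between 503 and 610 CPM to between 1111 and 1299 CPM (1.06). Paox, which oxidises polyamines back, fell from 22.1, 27.5 and 18.4 CPM to 7.16, 10.6 and 5.56 CPM (-1.51, adjusted p = 0.00993). Nos2, which competes with Arg1 for arginine in LPS-treated cells, read 1.99, 2.09 and 2.52 CPM and 1.41, 3.19 and 2.99 CPM with an adjusted p of 0.851, and 65.6, 186 and 118 CPM in the 3 non-irradiated LPS libraries.

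Of 34 tested nuclear genes of the respiratory chain 22 were called higher and 0 lower, each of the 34 differences was above 0 (0.19 to 1.09) and the median was 0.57. Atp5b, the catalytic subunit of ATP synthase, stood at 707, 610 and 705 CPM and at 1551, 1381 and 1363 CPM (1.09, SE 0.12, adjusted p = 0.00194). Cyc1, cytochrome c1, rose from between 50.7 and 61.6 CPM to between 108 and 135 CPM (1.04), and Cox5b from between 82.2 and 83.9 CPM to between 138 and 158 CPM (0.84). Of the 13 tested genes that the mitochondrion itself encodes, mt-Nd3 alone was called (0.48, adjusted p = 0.0426), and it lost the call in each of the 6 fits with 1 library left out (0.0586 to 0.118); the median of the 13 was -0.09. The count of 22 was 13 without control replicate 3, 14 without IL-4 replicate 1, 12 without IL-4 replicate 2 and 28 without IL-4 replicate 3, while the median stayed between 0.52 and 0.64.

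Enzymes of the tricarboxylic acid cycle moved by similar amounts, with 13 of 24 called higher, 1 lower and a median of 0.53. Mdh2, mitochondrial malate dehydrogenase, rose from 201, 185 and 193 CPM to 406, 400 and 291 CPM (0.90, adjusted p = 0.00854). Pdhb, a subunit of pyruvate dehydrogenase, rose from 60.6, 61.0 and 62.8 CPM to 97.0, 99.8 and 104 CPM (0.70, adjusted p = 0.00422). Suclg2, a subunit of succinyl-CoA ligase, was called lower (-0.75, adjusted p = 0.0262, up to 0.0816 without any 1 of the libraries other than IL-4 replicate 3). The count of 13 was 8 without control replicate 1 or IL-4 replicate 1, and 7 without control replicate 3 or IL-4 replicate 2. In glycolysis 9 of 22 genes were called higher and 2 lower. Pfkp, a phosphofructokinase, rose from 114, 93.4 and 112 CPM to 340, 309 and 347 CPM (1.64, SE 0.12, adjusted p = 0.000377), and Eno1 rose by 0.74 (adjusted p = 0.0131). The count of 9 was 5 without control replicate 2 or 3, 4 without IL-4 replicate 1 and 3 without IL-4 replicate 2, and of the 2 lower genes at most 1 was called in any fit with 1 library left out. For fatty acid oxidation 5 of 23 genes were called higher, and 1 or 2 when any library but IL-4 replicate 3 was left out. Etfa, which passes electrons from that pathway to the chain, rose from between 70.5 and 81.6 CPM to between 112 and 128 CPM (0.68, adjusted p = 0.00849), and Cpt1a, which admits fatty acids to the mitochondrion, was not called (-0.52).

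Myc, a factor known to drive ribosome assembly, rose. It stood at 26.9, 13.9 and 27.1 CPM and at 62.9, 57.7 and 64.0 CPM (1.48, SE 0.25, adjusted p = 0.0102). Of 27 tested genes of ribosome biogenesis and MYC-type targets 19 were called higher and 0 lower, with a median of 0.78 (0.69 to 0.87 with 1 library left out). Rrs1 rose from 32.7, 27.5 and 27.2 CPM to 77.7, 68.1 and 64.6 CPM (1.25, adjusted p = 0.00154), and the nucleolar proteins Nop56 and Fbl rose by 1.07 (adjusted p = 0.00273) and 0.78 (adjusted p = 0.00552). The count was 10 without control replicate 3 or IL-4 replicate 1, and 9 without IL-4 replicate 2. Of 30 cytosolic ribosomal proteins 7 were called higher by 0.40 to 0.66, but only 0 to 4 without any 1 library other than IL-4 replicate 3 (1 without control replicate 1 or IL-4 replicate 1, 4 without control replicate 2, 0 without control replicate 3, 2 without IL-4 replicate 2). Of 38 proliferation genes limma called 0 (1 higher and 0 lower at an unadjusted p below 0.05; 0 to 7 with 1 library left out, 7 without IL-4 replicate 3, whose own values were low) and the median was -0.21. Mki67 stood at 59.0 ± 12.0 CPM (SD, n = 3) and 49.7 ± 34.2 CPM (SD, n = 3).

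**Figure D4:**
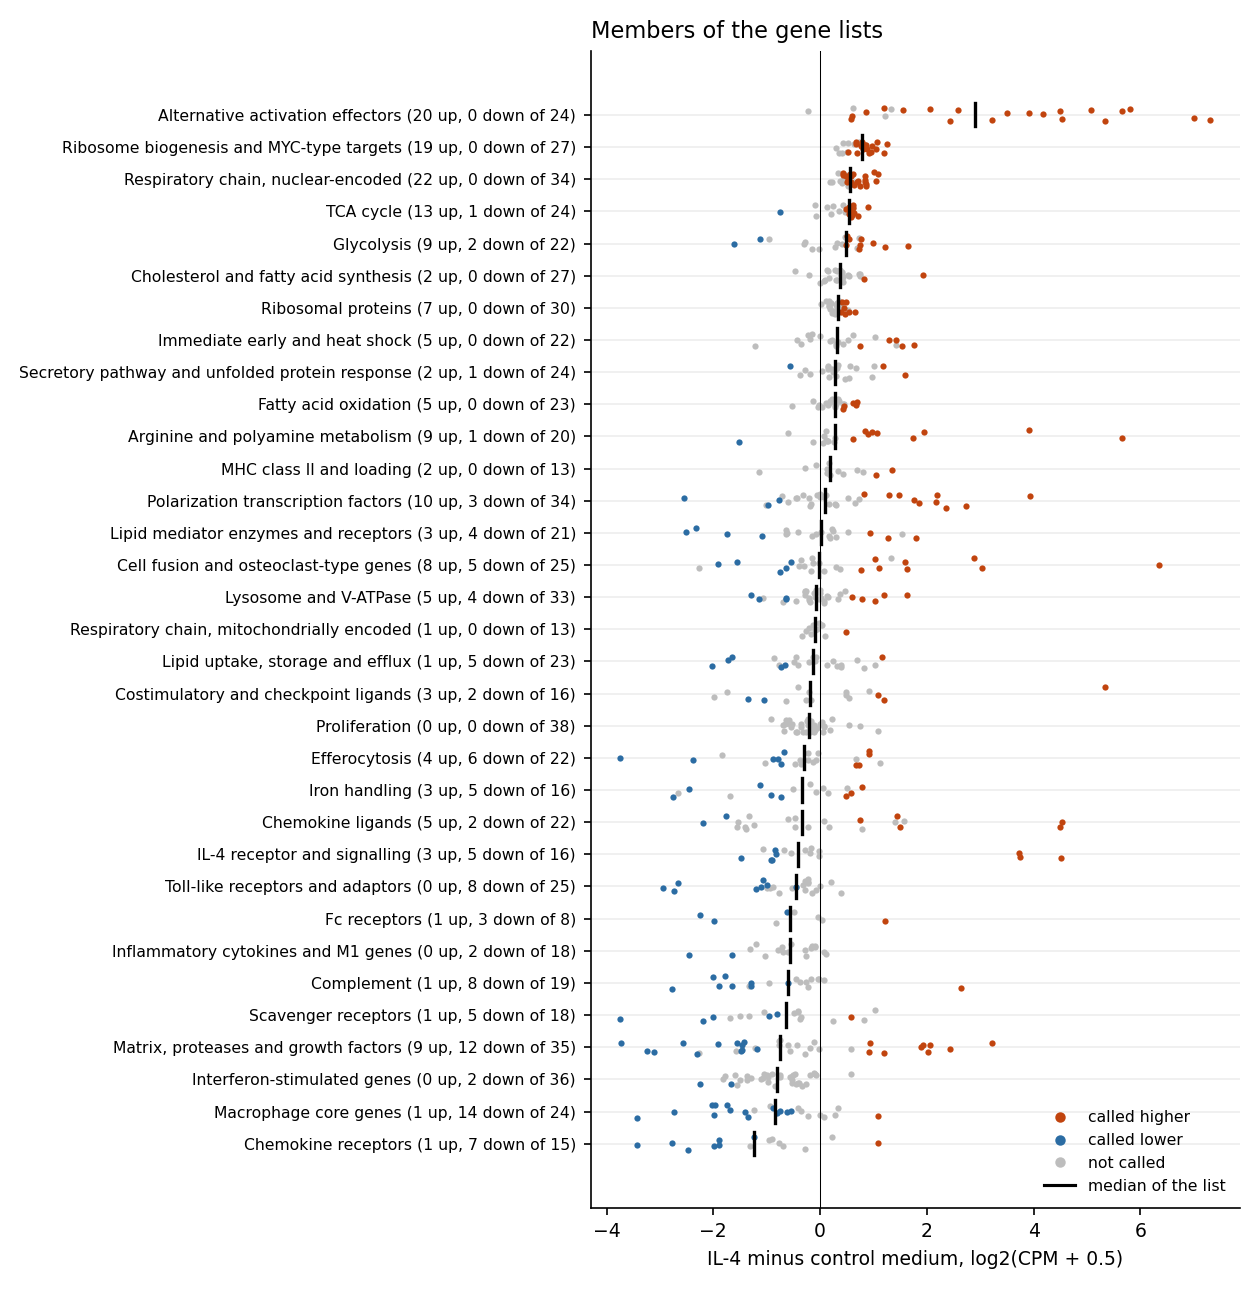
Each point is a tested gene, placed by its IL-4 minus control difference in log2(CPM + 0.5) on the x axis and by gene list on the y axis (33 lists; the lists of other cell types are not drawn), orange where called higher, blue where called lower and grey where not called; black bars are list medians. Alternative activation effectors (median 2.90) have the highest median of those drawn and chemokine receptors (-1.24) the lowest, and the nuclear-encoded respiratory chain and ribosome biogenesis lists sit in narrow bands above 0.

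Among 24 macrophage core genes 14 were called lower and 1 higher (8 lower without control replicate 1 or IL-4 replicate 2, 9 without control replicate 3 or IL-4 replicate 1), with a median of -0.84. The gene called higher was the lectin Lgals3 (1.09, adjusted p = 0.0136, and 0.054 without IL-4 replicate 2). Mpeg1, the pore-forming perforin-2, stood at 4809, 4893 and 5215 CPM and at 927, 1454 and 1334 CPM (-2.03, SE 0.18, adjusted p = 0.000892). Lyz2, lysozyme, fell from 12260, 13303 and 9947 CPM to 2969, 3974 and 3664 CPM (-1.74, adjusted p = 0.00136). Cx3cr1, the fractalkine receptor, fell from 16.5, 22.2 and 13.5 CPM to 0.84, 1.39 and 1.20 CPM (-3.43, SE 0.27, adjusted p = 0.000526). Emr1, which encodes F4/80, stood at 1467, 2653 and 1474 CPM and at 829, 417 and 984 CPM (-1.36, adjusted p = 0.0478), and the adjusted p was above 0.05, up to 0.121, without any 1 library other than IL-4 replicate 3. Csf1r fell by 0.62 (adjusted p = 0.0184; up to 0.0698 without control replicate 1 or 3 or IL-4 replicate 2). The summed level of the 24 genes was 35569 to 37170 CPM in control libraries and 22385 to 24910 CPM with IL-4.

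Several receptors for uptake of modified proteins and dying cells fell. Stab1, stabilin-1, stood at 797, 488 and 839 CPM and at 70.3, 47.2 and 39.6 CPM (-3.75, SE 0.28, adjusted p = 0.000531). Gas6, a bridge between dying cells and TAM receptors, stood at 287, 302 and 299 CPM and at 67.0, 47.8 and 55.5 CPM (-2.38, SE 0.14, adjusted p = 0.000168). Its receptor Mertk fell by 0.88 (adjusted p = 0.0199; 0.073 at most without control replicate 1 or IL-4 replicate 1). Of 18 scavenger receptors 5 were called lower and 1 higher, beside 8.01% and 8.23% of all genes tested. The counts were 3 lower without control replicate 1, 2 higher without control replicate 2, and 0 higher without control replicate 3 or any 1 IL-4 library. Cd163, the haemoglobin scavenger, read 19.1, 32.8 and 10.4 CPM and 9.81, 4.21 and 3.91 CPM with an adjusted p of 0.0565. Of 22 genes of efferocytosis 6 were lower and 4 higher, with 2 lower without control replicate 1, 3 without IL-4 replicate 2, 0 higher without IL-4 replicate 1, 2 higher without IL-4 replicate 3 and 1 higher without control replicate 3 or IL-4 replicate 2. The 4 higher were Dock2, Anxa1, Anxa2 and Pros1, which like Gas6 is a bridge to TAM receptors. Each lost its call in at least 2 of the fits with 1 library left out. Outside these lists, Sepp1, which encodes the selenium carrier selenoprotein P, fell from 4430, 3365 and 3981 CPM to 462, 523 and 549 CPM (-2.93, SE 0.14, adjusted p = 0.000135).

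Some pattern recognition and complement genes were lower with IL-4. Of 25 Toll-like receptors and adaptors 8 were called lower and 0 higher (6 or 7 lower with 1 library left out), and 17 were not called. Tlr2, the sensor of bacterial lipoprotein, stood at 51.1, 181 and 49.5 CPM and at 11.5, 7.85 and 9.75 CPM (-2.94, SE 0.49, adjusted p = 0.00969). Cd14, the co-receptor for LPS, stood at 144, 369 and 144 CPM and at 27.9, 26.6 and 33.02 CPM (-2.74, SE 0.36, adjusted p = 0.00422). Control replicate 2 was highest for both, and the other 2 control libraries were also above every IL-4 library. Tlr9 and Tlr13, which sense microbial DNA and RNA, fell by 2.66 and 1.10, whereas Tlr4, the LPS receptor, was not called (0.40). C5ar1, the receptor for the complement fragment C5a, stood at 452, 319 and 338 CPM and at 63.0, 39.8 and 59.7 CPM (-2.77, SE 0.21, adjusted p = 0.000526). C1qc, a subunit of C1q, fell from 1197, 1303 and 1033 CPM to 528, 382 and 255 CPM (-1.65, adjusted p = 0.00756). In all, 8 of 19 complement genes were lower (4 without control replicate 1 or IL-4 replicate 2, 5 without control replicate 3), and Itgax, the CD11c chain of a complement receptor, rose from 434, 182 and 529 CPM to 1918, 2078 and 2533 CPM (2.64, adjusted p = 0.00602).

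Of 8 tested Fc receptors 3 were called lower and 1 higher. Fcgr1, the high-affinity IgG receptor, fell from 190, 323 and 281 CPM to 66.0, 86.6 and 47.0 CPM (-1.99, adjusted p = 0.00471), and Fcgrt, the neonatal Fc receptor, from 127, 116 and 103 CPM to 22.1, 21.7 and 27.8 CPM (-2.25, SE 0.14, adjusted p = 0.000211). Fcrls, a receptor-like relative of this family, was the one called higher (1.22, adjusted p = 0.017), with an adjusted p of up to 0.0642 without control replicate 3 or IL-4 replicate 1. Of 15 chemoattractant receptors 7 were called lower and 1 higher, with a median of -1.24. Cmklr1, the chemerin receptor, fell from between 86.9 and 101 CPM to between 19.6 and 25.7 CPM (-1.99, adjusted p = 0.000327), and Cxcr4 from between 114 and 159 CPM to between 27.5 and 40.6 CPM (-1.89, adjusted p = 0.00139). Ccr1 was the receptor called higher (1.08, adjusted p = 0.0447), and it was above 0.05, up to 0.116, without control replicate 1 or 3 or IL-4 replicate 1 or 2.

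Matrix and TGF-beta pathway genes divided. Of 35 tested genes 9 were called higher and 12 lower, with 6 higher without control replicate 3. Among proteases, Mmp13, a collagenase, rose from 46.1, 41.7 and 48.9 CPM to 146, 374 and 276 CPM (2.43, adjusted p = 0.00422), Mmp19 from between 48.1 and 96.1 CPM to between 234 and 274 CPM (1.93), and Plaur, the urokinase receptor, from between 75.5 and 123 CPM to between 310 and 408 CPM (1.90). Igf1, an insulin-like growth factor, rose from 463, 541 and 532 CPM to 1160, 1265 and 1089 CPM (1.19, SE 0.12, adjusted p = 0.00142). Mmp12, macrophage elastase, stood at 5185, 1447 and 3187 CPM and at 9414, 13164 and 13950 CPM (2.06, adjusted p = 0.0221), and Fn1, fibronectin, at 529, 79.9 and 313 CPM and at 2070, 1589 and 3246 CPM (3.21, adjusted p = 0.0194). Control replicate 2 was the lowest library for both. The adjusted p rose to as much as 0.0684 for Mmp12 without control replicate 3 or any 1 IL-4 library, and to 0.0611 for Fn1 without control replicate 3, IL-4 replicate 1 or IL-4 replicate 3.

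On the falling side, the TGF-beta receptor Tgfbr1 stood at 243, 194 and 218 CPM and at 77.5, 79.4 and 85.0 CPM (-1.43, SE 0.12, adjusted p = 0.00066). Its signal carrier Smad3 fell from between 28.7 and 31.5 CPM to between 9.20 and 12.6 CPM (-1.48). F13a1, a coagulation factor often used as a mark of alternative activation in human cells, fell from 32.8, 28.4 and 31.7 CPM to 6.50, 3.72 and 1.15 CPM (-3.10, SE 0.48, adjusted p = 0.0081). Igfbp4, which binds IGF1, fell from 190, 150 and 201 CPM to 27.1, 11.4 and 6.94 CPM (-3.73, SE 0.44, adjusted p = 0.00283). Stromal markers moved in the same samples: 4 of 15 tested were called lower, 7 without control replicate 2 1 without IL-4 replicate 3 and 0 without control replicate 1 or 3 or IL-4 replicate 2, and their summed level was 243 to 732 CPM in control libraries and 128 to 316 CPM with IL-4. Their part in the lower matrix values was not tested.

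Prostaglandin genes changed at several steps. Ptgs1 (cyclooxygenase 1), which makes the common precursor, rose from 31.8, 44.9 and 31.1 CPM to 138, 114 and 121 CPM (1.79, SE 0.17, adjusted p = 0.00105), while Ptgs2 was not called (-0.15). Hpgds, which makes prostaglandin D2, fell from 168, 145 and 139 CPM to 32.7, 26.4 and 29.6 CPM (-2.33, SE 0.13, adjusted p = 0.000168). Hpgd, which inactivates prostaglandins, fell from 26.1, 42.1 and 17.5 CPM to 4.95, 4.62 and 3.45 CPM (-2.51, adjusted p = 0.00318). Of the receptors for prostaglandin E2, Ptger2 rose from between 8.79 and 13.1 CPM to between 22.6 and 32.0 CPM (1.26, adjusted p = 0.00766) and Ptger4 fell from between 21.3 and 37.3 CPM to between 7.06 and 8.37 CPM (-1.73, adjusted p = 0.00328). In all 3 of 21 tested genes of lipid mediators were called higher and 4 lower.

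Of 23 tested genes of lipid uptake, storage and efflux 1 was called higher and 5 lower (1 lower without control replicate 3, 2 without control replicate 1 or IL-4 replicate 1, 3 without control replicate 2 or IL-4 replicate 2; 2 higher without control replicate 1 or 2 or IL-4 replicate 3). Abcg1, a cholesterol exporter, rose from 251, 303 and 338 CPM to 591, 702 and 706 CPM (1.17, adjusted p = 0.00285), while Apoe stood at 10810, 7595 and 9970 CPM and at 4250, 1137 and 2513 CPM (-2.02, adjusted p = 0.0243; up to 0.0779 without any 1 control library). Scd2, a fatty acid desaturase, rose from 190, 131 and 162 CPM to 699, 792 and 410 CPM (1.93, adjusted p = 0.00471). It was 1 of 2 called higher of 27 genes of cholesterol and fatty acid synthesis, beside 8.23% of all genes tested. Without IL-4 replicate 3, 12 were called higher, and 1 without any 1 of the other libraries. Of 16 iron genes 3 were higher and 5 lower (1 higher without IL-4 replicate 1 or 2, 3 lower without control replicate 2). Fth1, the ferritin heavy chain, fell from 9704, 14018 and 10626 CPM to 6050, 6391 and 5513 CPM (-0.92, adjusted p = 0.0125), and Slc40a1, the iron exporter ferroportin, from 750, 952 and 470 CPM to 105, 214 and 47.8 CPM (-2.76, adjusted p = 0.0155, and up to 0.0575 without control replicate 2 or IL-4 replicate 1).

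Over all genes tested 8.23% were called higher and 8.01% lower, and calls among antigen presentation and inflammatory genes are given against those shares. Whether these short lists differ from them was not tested. Of 13 tested genes of MHC class II and its loading 2 were called higher (3 without control replicate 2 and 1 without any 1 of the other libraries). H2-DMb1, which helps load peptides, stood at 75.0, 87.2 and 119 CPM and at 250, 239 and 218 CPM (1.35, adjusted p = 0.00326), and H2-Ab1 was not called (0.69). Among 36 interferon-stimulated genes 2 were called lower, Oas2 and Ifitm3, and their median was -0.80. Their summed level was 1272, 4637 and 2449 CPM in control replicates 1 to 3, and 1352, 2182 and 838 CPM with IL-4, so the groups overlapped. Without control replicate 2 the median was -0.26, also with 2 calls, and there were 0 calls without control replicate 1 or 3 or any 1 IL-4 library. Of 18 inflammatory genes 2 were lower, Marcksl1 and Nfkbiz, and 0 were called without any 1 IL-4 library. Of 33 tested genes of the lysosome and its V-ATPase proton pump, 5 were called higher, 4 lower and 24 not called, with a median of -0.07. With 1 library left out, 3 to 6 were higher and 1 to 5 lower. V-ATPase subunits Atp6v1b2 and Atp6v1h rose by 1.21 (adjusted p = 0.00407) and 0.78 (adjusted p = 0.0027), and cathepsin H (Ctsh) fell by 1.14 (adjusted p = 0.00969).

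Several strongly changed genes belonged to none of the lists. Kcnd3, a voltage-gated potassium channel, stood at 0.422, 0.745 and 0.478 CPM and at 49.9, 38.8 and 60.3 CPM (5.57, SE 0.24, adjusted p = 6.7e-05). Scn3a, a voltage-gated sodium channel, stood at 0.345, 2.24 and 0.435 CPM and at 69.2, 31.0 and 51.1 CPM (5.23, SE 0.50, adjusted p = 0.00145). Tmem26, a membrane protein also known as a mark of beige fat cells, stood at 24.2, 57.9 and 13.3 CPM and at 929, 913 and 770 CPM (5.00, SE 0.47, adjusted p = 0.00139). Ddx4, an RNA helicase of germ cells, stood at 0.575, 1.04 and 0.913 CPM and at 41.0, 48.8 and 26.6 CPM (4.84, SE 0.28, adjusted p = 0.000168). Il31ra, a receptor chain for IL-31, stood at 0.422, 0.112 and 0.0435 CPM and at 14.9, 16.8 and 9.93 CPM (4.38). These genes were at 2.24 CPM or below in the controls, except Tmem26, and the IL-4 libraries lay above them. Kcnd3, Scn3a, Ddx4 and Il31ra passed the filter only through the IL-4 libraries, as did Cish, Socs1, Ccl24 and Pdcd1lg2 above. Genes this low in the controls were tested only if they reached 1 CPM with IL-4, so their direction is in part set by the filter.

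The deepest falls also reached outside the lists. Emr4, an adhesion receptor of the F4/80 family, stood at 21.0, 58.4 and 23.8 CPM and at 0.884, 0.939 and 1.01 CPM (-4.44, SE 0.38, adjusted p = 0.000741). Gpr162, an orphan receptor, stood at 23.2, 70.0 and 25.7 CPM and at 1.99, 1.43 and 2.67 CPM (-3.83, SE 0.43, adjusted p = 0.00244). Gpr34, a lysophosphatidylserine receptor abundant in microglia, stood at 19.2, 17.3 and 22.4 CPM and at 1.24, 1.16 and 2.25 CPM (-3.32, SE 0.26, adjusted p = 0.000531). Control replicate 2 was highest for Emr4 and Gpr162 and lowest for Gpr34. Emr4, like Cx3cr1 above, passed the filter only through the control libraries. Pou2f2, a lymphoid and myeloid factor, fell from 25.1, 44.5 and 24.6 CPM to 5.44, 2.37 and 2.48 CPM (-3.05, adjusted p = 0.00253).

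Markers of other marrow cells were checked as whole lists, and their part in the results was not tested. Of 16 tested neutrophil markers 6 were called lower and 0 higher (1 without control replicate 2 or IL-4 replicate 2, 2 without control replicate 3). Their summed level was 673 to 1374 CPM in control libraries and 118 to 384 CPM with IL-4. S100a8 stood at 120, 149 and 157 CPM and at 36.9, 37.1 and 9.38 CPM (-2.56, adjusted p = 0.0168; up to 0.0614 without control replicate 2 or 3). Of 9 tested B lineage markers 2 were lower (1 without control replicate 1 or 3, 5 without IL-4 replicate 1), and the sum was 326 to 379 CPM and 210 to 295 CPM. Of 5 tested T and NK cell markers 2 were called higher, the granzymes Gzma (difference 2.71, adjusted p = 0.00325) and Gzmb (2.63, adjusted p = 0.0292, up to 0.0945 without any 1 control library or IL-4 replicate 1). Cd3e, Ncr1 and Prf1 lay under 1 CPM in every library and did not pass the filter. Gzma stood at 0.192, 0.559 and 0.0426 CPM and at 3.49, 5.22 and 4.41 CPM, and both granzymes passed the filter only through the IL-4 libraries. The summed level of the 14 markers was 56.2, 182.5 and 25.6 CPM in control libraries and 17.8, 51.2 and 19.4 CPM with IL-4, and Cd4, also found on some macrophages, was not called (-2.51, adjusted p = 0.0843). No mast cell, basophil or eosinophil marker was called by limma of 10 tested (0 higher and 1 lower at an unadjusted p below 0.05; 1 was called without IL-4 replicate 1), 1 (Mcpt4) was at 0 in all 6 libraries, and the sum was 46.8 to 106 CPM and 40.6 to 61.6 CPM. Of 6 tested erythroid and megakaryocyte markers 3 were lower, with sums of 147 to 218 CPM and 72.9 to 105 CPM.

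Monocyte and dendritic cell lists share genes with the IL-4 response. Of 14 monocyte markers 3 were called higher, Chil3, Fn1 and S100a4, and 4 lower (6 lower without control replicate 1, 2 lower without control replicate 3, 2 higher without control replicate 3, IL-4 replicate 1 or IL-4 replicate 3). Ms4a6c fell from 118, 271 and 139 CPM to 34.6, 35.5 and 27.7 CPM (-2.32, adjusted p = 0.00419). Of 12 dendritic cell markers 4 were higher (Ccl22, Itgax, Batf3 and Zbtb46) and 2 lower, among them Fscn1, an actin-bundling protein, which fell from 43.9, 33.3 and 38.5 CPM to 11.6, 6.35 and 3.95 CPM (-2.43, adjusted p = 0.00553). Flt3, Clec9a and Siglech, which define dendritic cell types, were not called. The number lower was 1 without IL-4 replicate 1.

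Levels in the LPS and irradiated groups are given side by side without a test, since the LPS comparison shares the control libraries. Retnla lay at 36.03, 17.1 and 21.3 CPM and Arg1 at 8.33, 6.36 and 10.5 CPM in the non-irradiated LPS libraries, within or near the control ranges. Cx3cr1 lay at 3.54, 4.84 and 5.39 CPM with LPS, between the IL-4 and control values. Gas6 lay at 71.6, 50.6 and 75.9 CPM with LPS, overlapping the IL-4 values and below all 3 controls. Tlr2 lay at 203, 149 and 229 CPM and Fcgr1 at 1644, 1569 and 1728 CPM with LPS. In the irradiated IL-4 groups, replicates 2 and 3 held Retnla at 1306 to 1497 CPM, Arg1 at 631 to 1057 CPM and Maf at 88.9 to 105 CPM. The libraries labelled FLASH IL-4 replicate 1 and standard IL-4 replicate 1 went against their labels, with Retnla at 17.7 and 20.2 CPM and Maf at 273 and 313 CPM. The library labelled FLASH control replicate 1 held Retnla at 848 CPM and Chil3 at 7426 CPM. None of these irradiated libraries entered the comparison, apart from the fit to all 27.

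**Figure D5:**
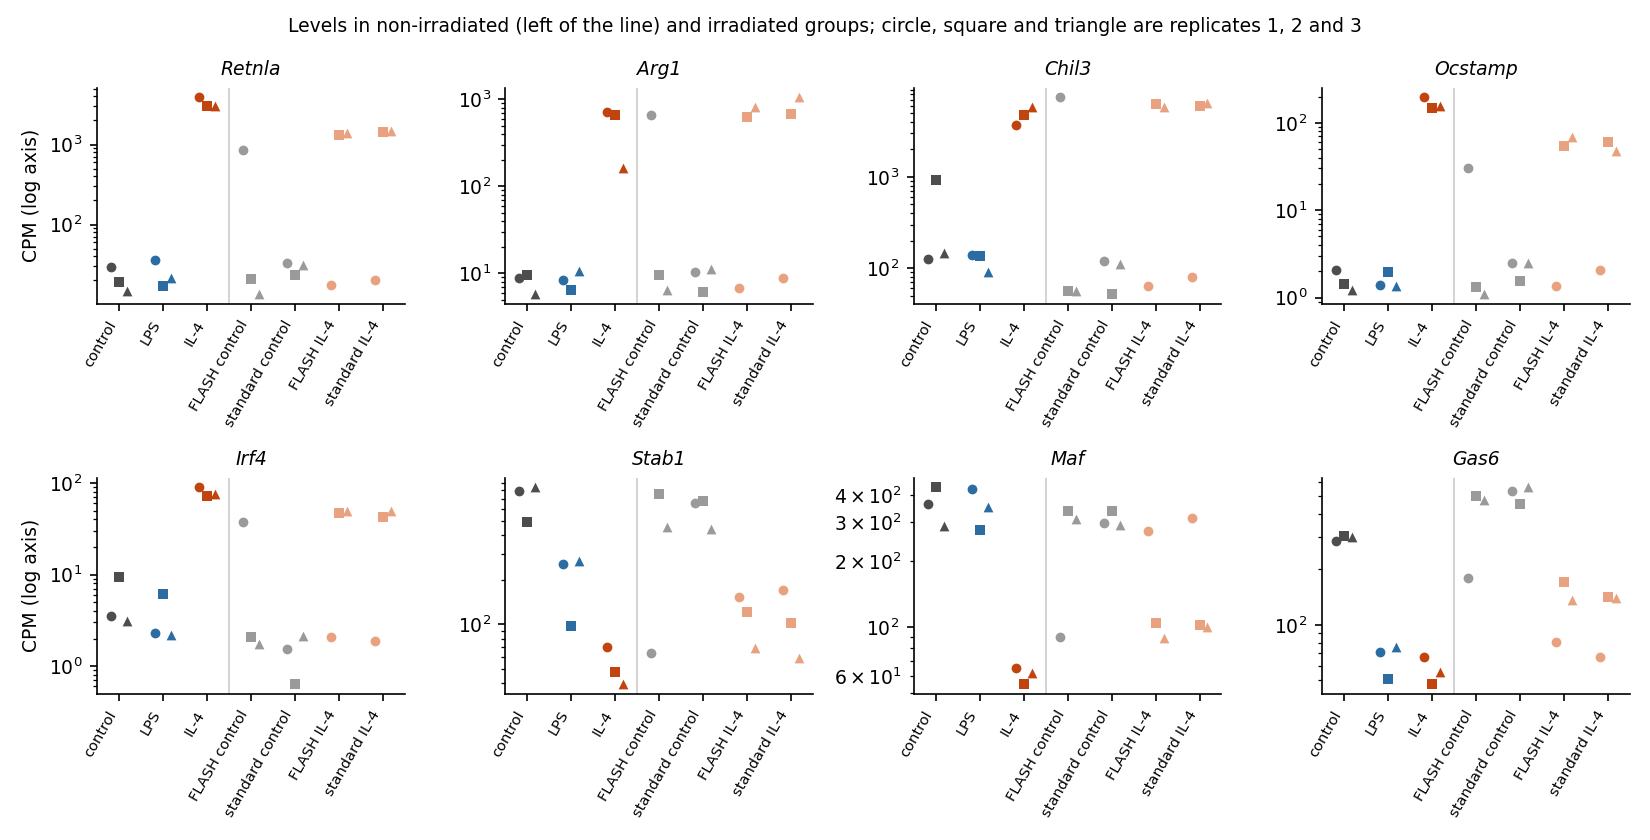
CPM on a log axis for 8 genes in the non-irradiated control, LPS and IL-4 libraries and in the irradiated control and IL-4 libraries, with circle, square and triangle for replicates 1, 2 and 3. Irradiated IL-4 replicates 2 and 3 lie near the non-irradiated IL-4 libraries for Arg1 and Chil3, while replicate 1 of both irradiated IL-4 groups and of the FLASH control group lies on the other side.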

How the data were processed

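RNA of the 27 libraries was sequenced on a NovaSeq, per the labels' protocols. Per the submitters' processing notes, the authors used kallisto 0.46.1, R 4.0.5 and edgeR 3.36.0. The build given there, GRCh38, is human although the samples are mouse, and only gene symbols were taken from the deposited table. The deposited table holds a signal per gene and library, CPM scaled between libraries, with column sums of 929400 to 983455 in the 6 libraries compared. Raw counts were not used here. The values were 96.6% to 98.2% whole reads within 0.01 read at the recovered depth, and no count model was fitted. Of 19070 entries 1 had no symbol (0.00543% to 0.00753% of signal) and was left out, and 0 columns belonged to no sample.

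Genes at 1 CPM or more in at least 3 of the 6 libraries were put on the log2(CPM + 0.5) scale. Group means of the 2 groups were compared with limma 3.58.1, run in R 4.3.3 with the trend and robust options on (statmod 1.5.0). The Benjamini-Hochberg adjustment covered all 12072 genes, and the script was tested on simulated data. Groups came from the labels. The genes named are the 15 highest and 15 lowest called differences among genes whose groups did not overlap and whose higher mean reached 5 CPM, at most 4 called genes each way from every one of 41 lists (in a list without calls, the gene of smallest p), a set of markers, and the 10 largest changes in mean CPM each way, 208 in all. Other list members given with a value were named after their values were seen. The members, lists and markers were chosen with earlier results of these data known. Of 943 list entries 9 were not matched and 5 were matched by a synonym, among them Adgre1, listed as Emr1. Lists are described by counts and medians, with no set test. Alternatives were another pseudocount, filter, scaling or variance model, more libraries, a replicate block and leaving out each library.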

Additional observations from a re-analysis of the deposited data

How the results depend on the processing

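With all 6 libraries 1961 genes were called. The count stayed within 1.5 times of it, between 1356 and 2436, with a pseudocount of 0.1 or 1, with no filter or a filter of 5 CPM, with median-of-ratios scaling, without trend and robust moderation, and with 9 or 27 libraries. It ranged from 949 to 2114 with 1 library left out, and an added fit without both control replicate 2 and IL-4 replicate 3, chosen after seeing the data, called 2267. Of the genes called with all 6 libraries, 46.8% (918) were also called in the same direction without control replicate 3 and 82.2% (1612) without IL-4 replicate 3. None of the 200 called genes among those named changed direction under any alternative run. This was mostly fixed in advance. Of the 1961 called genes 0 had overlapping groups, so leaving out a library could not reverse them. More libraries, a block or another variance model leave the difference itself unchanged. The median difference over all genes lay between -0.01 and 0.02 log2 under the scalings and filters tried.

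With the replicate number as a block 1474 genes were called, 1359 of them shared. The deviations of same-numbered libraries correlated at 0.0356, 0.114 and -0.0573, so the numbers were not taken to pair the libraries. Same-numbered libraries share a code in their titles, and whether it marks a common batch or day is not given. With 3 libraries a group, the median SE of a difference was 0.195 log2, and a call needed a difference well above its SE. Among genes whose groups did not overlap, 1315 higher and 1264 lower with IL-4 were not called.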

Other observations

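Immediate early genes, which growth and stress signals switch on within minutes, were also counted. Of 22 tested genes of this list and of heat shock 5 were called higher and 0 lower, with a median difference of 0.31 (4 or 5 higher and at most 1 lower with 1 library left out). Fosl2, a subunit of the AP-1 factor, rose from 64.6, 55.5 and 55.3 CPM in control libraries to 178, 137 and 201 CPM with IL-4 (difference 1.53, SE 0.16, limma adjusted p = 0.00154). Jun, another AP-1 subunit, rose from 164, 157 and 153 CPM in control libraries to 259, 241 and 296 CPM with IL-4 (difference 0.74, SE 0.11, limma adjusted p = 0.00659). Ier3, an early response gene, rose from 17.1, 30 and 17 CPM in control libraries to 49.4, 70.3 and 49.9 CPM with IL-4 (difference 1.41, SE 0.25, limma adjusted p = 0.0119). For all 3 genes each IL-4 library was above every control library, as for every gene called higher, and each stayed called whichever library was left out.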
